A study of Mus musculus with 6 samples.

Results

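The response of splenic Ly6cloF4/80hi macrophages to T cell acute lymphoblastic leukemia (T-ALL) was described gene by gene, by setting the library sorted from T-ALL spleen at day 15 against the library of the same gate from normal spleen. A gene was included when it reached 5 FPKM (fragments per kilobase of transcript per 1000000 fragments) in 1 or both of these 2 libraries, and a gene absent from a file was counted as 0. Of the 16058 genes listed anywhere in the series 8905 (55.5%) met this rule, and 7153 stayed under the floor in both libraries. The difference is given for each gene as the log2 ratio of (FPKM + 1), T-ALL over normal, a scale that understates the change of genes with low values.

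T-ALL mice were C57BL/6 mice, 6 to 8 weeks old, that had received 1000000 GFP+ leukemia cells each, taken from leukemic mice, with no irradiation, and their spleen was taken on day 15. Normal mice were of the same strain and age, with the spleen taken on day 0. Mice given this leukemia lived 35 to 40 days, so day 15 lies well before death. Macrophages of the gates Ly6cloF4/80hi, Ly6cloF4/80lo and Ly6chiF4/80lo were sorted, which gave 6 libraries, 1 for each gate and state. The labels do not say how many mice went into a library or whether the gates of a state came from the same mice. There was 1 library a group, so none of the differences has a replicate check, no test was made, and the words higher and lower compare these libraries and not the conditions. Differences of at least 2-fold in (FPKM + 1) are the ones counted.

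Macrophages with high F4/80 and Vcam1 in mouse spleen are the resident cells of the red pulp. They take up aged red cells, break down the heme and return the iron to the blood through ferroportin, and in mice the transcription factor Spic is needed for their formation. Red pulp macrophages also sit at the centre of erythroblastic islands, where they are attached to maturing red cell precursors, and mouse spleen makes red cells under stress.

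The sequencing depth estimated from the spacing of low FPKM values was 8.87 M fragments (M, 1000000) in T-ALL Ly6cloF4/80hi and 7.82 M in normal Ly6cloF4/80hi, and it ran between 6.78 and 8.87 M over the 6 libraries. At this estimate 62.4% of 402 low values in T-ALL and 63.6% of 385 in normal came within 0.1 of a whole fragment, so the depth is approximate. At that depth a transcript of 2 kb at 5 FPKM carries a counting error of 10.8% in T-ALL and 11.5% in normal, and one at 10 FPKM an error of 7.62% and 8.12%. These errors cover counting only. FPKM summed to 575061 in T-ALL and 494558 in normal. The share of these sums taken by 4 adult globin genes was 6.75% in T-ALL and 1.02% in normal, and the share of 36 cytosolic ribosomal protein genes was 6.78% in T-ALL and 3.26% in normal.

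The gate's label was checked against its defining markers. Adgre1, which encodes F4/80, was at 234 FPKM in T-ALL and 529 FPKM in normal Ly6cloF4/80hi, while the other 4 libraries held 47.3 to 86.7 FPKM. Vcam1, the adhesion molecule that marks red pulp macrophages, was at 701 FPKM in T-ALL and 2046 FPKM in normal Ly6cloF4/80hi, against 24.9 to 80.4 FPKM in the other 4 libraries. Both markers therefore set the Ly6cloF4/80hi gate apart from the other gates in each state, and both were lower in T-ALL within the gate, by log2 ratios of -1.17 for Adgre1 and -1.54 for Vcam1. Ly6c2, a gene for the Ly6C antigen of the gates, stood at 19.8 FPKM in T-ALL and 11.8 FPKM in normal, against 1405 FPKM in T-ALL Ly6chiF4/80lo. Ly6c1, a close relative of Ly6c2 whose reads may be split with it, was at 1.04 and 0.750 FPKM in T-ALL and normal.

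Over the 8905 genes 959 were at least 2-fold higher in T-ALL Ly6cloF4/80hi (10.8%) and 583 were at least 2-fold lower (6.55%), with 7363 within 2-fold. The median log2 ratio of all genes was 0.05, and the 5th, 25th, 75th and 95th percentiles lay at -1.11, -0.37, 0.50 and 1.53. The upper tail was the longer one, with 254 genes at least 4-fold higher and 40 at least 4-fold lower, and 56 genes at least 8-fold higher and 5 at least 8-fold lower. Of the 56 genes 16 belonged to a list of 28 erythroid genes. These shares of 10.8% and 6.55% are the background for the list counts that follow. A gene that reached the floor in 1 library alone is high there by that choice, so its call says little, and counts over genes at or above 5 FPKM in both libraries are added where they differ. The balance between the directions depended on scaling. Higher genes made up 62.2% of all 2-fold genes in FPKM as deposited, 52.8% after quantile normalization, 50.1% when each library was scaled to a sum of 1000000 without the erythroid list and 41.2% when it was scaled to a sum of 1000000 over all genes. The last 2 scalings moved the median of all genes by -0.12 and -0.21, so differences of that size can change sign with the scaling. At the floor itself Oaf (5.0 FPKM in T-ALL and 4.19 FPKM in normal) and Nkx2-1 (2.95 and 5.0 FPKM) were included, and Carmil2 (4.99 and 2.94 FPKM) and Luzp1 (2.38 and 4.99 FPKM) were not.

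**Figure D1:**
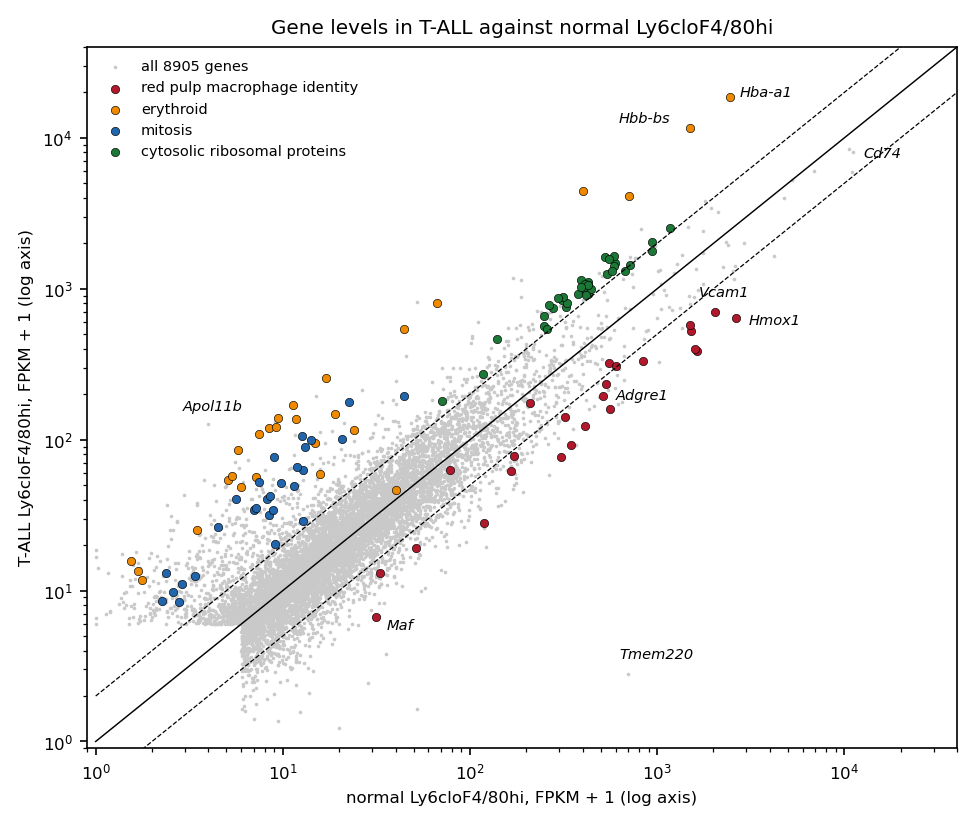
Level of each of the 8905 genes in T-ALL Ly6cloF4/80hi (vertical axis) against normal Ly6cloF4/80hi (horizontal axis), in FPKM + 1 on log axes, 1 library each. The solid line marks equal values and the dashed lines a 2-fold difference. Erythroid, mitosis and ribosomal protein genes lie above the diagonal, red pulp macrophage genes lie under it, and Tmem220 stands alone at the lower right with 1.82 FPKM in T-ALL and 694 FPKM in normal.

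Genes listed for red pulp macrophages were lower in T-ALL as a group. Of 24 such genes, all of which passed the floor, 20 were at least 2-fold lower and 0 were at least 2-fold higher, and all 24 log2 ratios were negative, from -2.24 to -0.27 with a median of -1.43. The summed level of the list was 5625 FPKM in T-ALL and 16738 FPKM in normal. The list was written with earlier results of these data known. Not all members are particular to red pulp macrophages: Siglec1 and Treml4 are also on lists of other cell types. In this bulk measurement fewer macrophages in the sorted population and less of each RNA per macrophage cannot be told apart.

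Among the transcription factors of the list, Spic was at 329 FPKM in T-ALL and 837 FPKM in normal, a log2 ratio of -1.34. Maf, a factor of mature macrophages, was at 5.65 FPKM in T-ALL and 30.4 FPKM in normal (-2.24). Nr1h3, which encodes the oxysterol receptor LXR alpha, was within 2-fold, with 174 FPKM in T-ALL and 209 FPKM in normal (-0.27). Maf and Nr1h3 stood at the extremes of the list, and whether its genes moved by 1 common factor was not tested. Csf1r, the receptor for the growth factor on which macrophages depend, was at 574 FPKM in T-ALL and 1488 FPKM in normal (-1.37).

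Surface and secreted products were lower too. Fcna, which encodes the lectin ficolin A, was at 526 FPKM in T-ALL and 1510 FPKM in normal (-1.52), and Itgad, an integrin alpha chain of splenic macrophages, at 123 and 409 FPKM (-1.73). Mrc1, the mannose receptor, was at 75.2 FPKM in T-ALL and 307 FPKM in normal (-2.01). Siglec1, a sialic acid receptor found mainly on metallophilic macrophages of the marginal zone, was at 12.1 FPKM in T-ALL and 31.9 FPKM in normal (-1.33). The other members were within 2-fold: Cd68 with 305 and 601 FPKM (-0.97), Sirpa with 321 and 555 FPKM (-0.79), Il18bp with 61.6 and 76.9 FPKM (-0.32) and Nr1h3.

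The T-ALL library of the gate still held more of these transcripts than the other gates. The list summed to 5625 FPKM in T-ALL Ly6cloF4/80hi, against 1146 FPKM in T-ALL Ly6cloF4/80lo and 1320 FPKM in T-ALL Ly6chiF4/80lo. Mertk, a receptor for dying cells, shows the distance for 1 gene: it was at 60.8 FPKM in T-ALL and 164 FPKM in normal Ly6cloF4/80hi, and at 1.34 to 4.76 FPKM in the other 4 libraries.

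**Figure D2:**
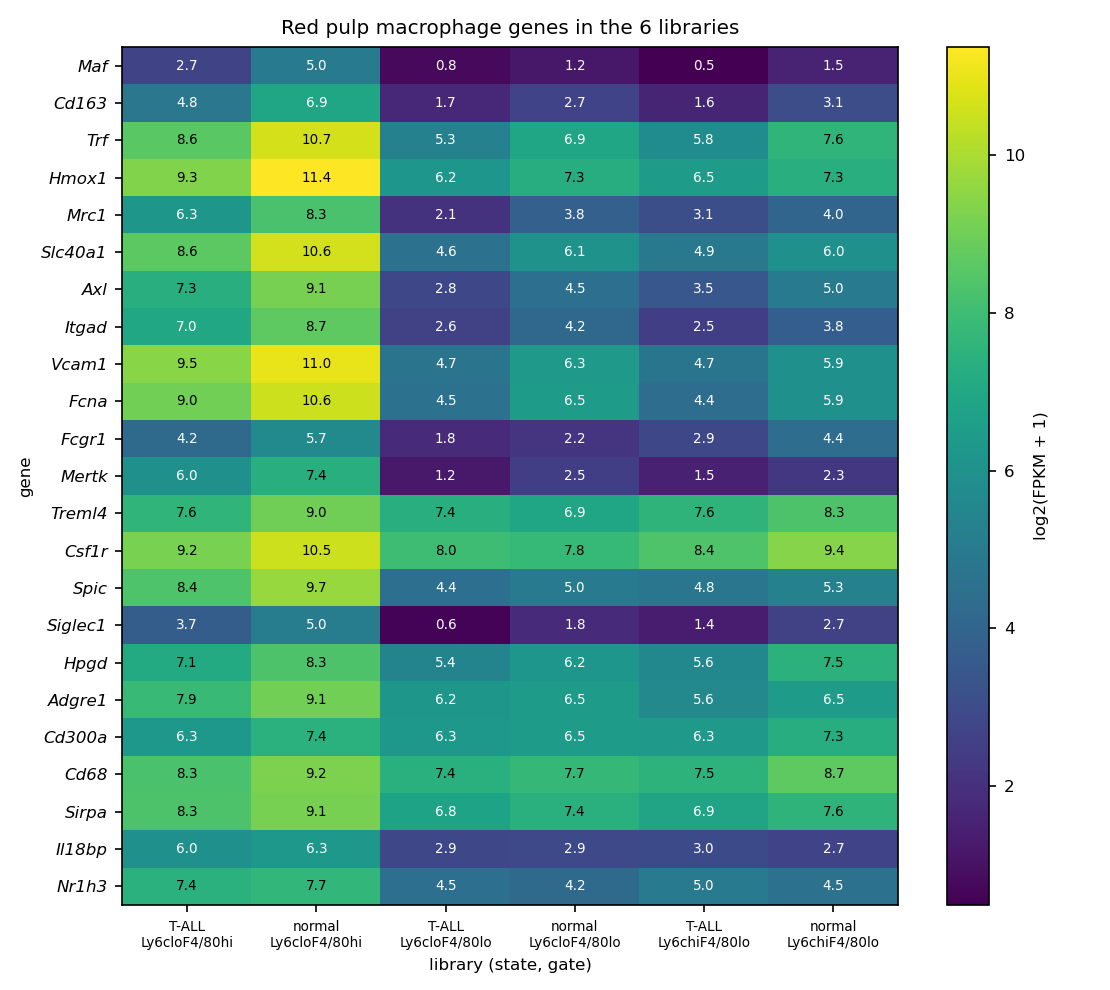
Levels of red pulp macrophage genes in the 6 libraries, as log2(FPKM + 1), with genes ordered by their log2 ratio in Ly6cloF4/80hi. For each gene shown the T-ALL Ly6cloF4/80hi column is lower than the normal one beside it, and it is above the 4 columns of the other gates for all genes shown but Csf1r, Hpgd, Cd68, Fcgr1, Cd300a and Treml4.

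Genes of iron and heme recycling, the specialised task of these cells, did not share a direction. Of 24 listed genes 22 passed the floor, with 8 at least 2-fold lower, 4 at least 2-fold higher and a median of -0.31. Of the 20 over the floor in both libraries 8 were lower and 2 higher. The lower genes included members that act in uptake, heme breakdown and export. Cd163, the receptor for hemoglobin bound to haptoglobin, was at 27.1 FPKM in T-ALL and 117 FPKM in normal (-2.07). Slc48a1, which carries heme out of the phagolysosome, was at 90.1 FPKM in T-ALL and 216 FPKM in normal (-1.25). Hmox1, the enzyme that opens the heme ring, was at 634 FPKM in T-ALL and 2644 FPKM in normal (-2.06), and was the ninth most abundant transcript of the normal library. The iron exporter ferroportin, encoded by Slc40a1, was at 396 FPKM in T-ALL and 1597 FPKM in normal (-2.01), and transferrin (Trf), the iron carrier of plasma, at 387 and 1633 FPKM (-2.07). Each of these 5 genes was at least 2-fold lower. Cd163, Hmox1, Slc40a1 and Trf are also members of the red pulp list, so the lists are not independent.

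Iron storage genes differed less. The ferritin light chain gene Ftl1 was at 5979 FPKM in T-ALL and 11044 FPKM in normal (-0.89), and the heavy chain gene Fth1 at 3984 and 4734 FPKM (-0.25). Both have many processed copies in the mouse genome, so their counts are uncertain. Biliverdin reductase B (Blvrb), a later step of heme breakdown which red cell precursors also express strongly, was within 2-fold at 486 FPKM in T-ALL and 347 FPKM in normal (0.49), and Blvra at 104 and 137 FPKM (-0.39). The 4 higher genes were Tfrc, Steap3, Abcg2 and Cp, and they too include genes of uptake and export. Steap3 and Cp reached the floor in T-ALL alone, so their calls say little. Abcg2, an exporter of porphyrins, was at 28.6 FPKM in T-ALL and 7.02 FPKM in normal (1.88), and Cp, the ferroxidase ceruloplasmin, at 5.91 and 2.30 FPKM (1.07). Tfrc, the transferrin receptor through which red cell precursors take up iron, was at 93.6 FPKM in T-ALL and 13.8 FPKM in normal (2.67), and Steap3, the ferrireductase of the same route, at 29.4 and 4.13 FPKM (2.57). Tfrc is also an erythroid list member, and the summed erythroid level beside it was 42039 FPKM in T-ALL and 5352 FPKM in normal. The part of erythroid RNA in these values was not tested.

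Receptors for dying cells and scavenger receptors had 9 of 21 members over the floor at least 2-fold lower and 0 higher. Their median was -0.79. Of the 18 over the floor in both libraries 8 were lower and 0 higher. Axl, a receptor that binds dying cells through Gas6, was at 158 FPKM in T-ALL and 557 FPKM in normal (-1.81), and Gas6 itself at 2.68 and 10.7 FPKM (-1.67). Itgb5, the beta chain of an integrin that binds the bridging protein Mfge8, was at 5.62 FPKM in T-ALL and 18.3 FPKM in normal (-1.54). Not all members were lower: Cd5l, a secreted scavenger protein of tissue macrophages, was within 2-fold with 547 FPKM in T-ALL and 509 FPKM in normal (0.10, and -0.34 under the lowest scaling), and Timd4, a phosphatidylserine receptor, with 22.4 and 39.6 FPKM (-0.79).

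Complement genes had 5 of 13 members over the floor at least 2-fold lower and 1 higher, with a median of -0.88 that ran between -1.18 and -0.40 over the alternative settings. Of the 10 over the floor in both libraries 3 were lower and 0 higher. The chains of C1q, the starting protein of the classical pathway, were at 1156 FPKM in T-ALL and 2567 FPKM in normal for C1qa (-1.15), 1418 and 2603 FPKM for C1qb (-0.88) and 1306 and 2539 FPKM for C1qc (-0.96). Properdin, encoded by Cfp, was at 547 FPKM in T-ALL and 1351 FPKM in normal (-1.30), and C6, a component of the membrane attack complex, at 70.0 and 187 FPKM (-1.41). The opposite direction was held by C4b, at 13.7 FPKM in T-ALL and 3.70 FPKM in normal (1.65), while C3 was within 2-fold at 40.2 and 22.9 FPKM (0.78).

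Fc receptors had 3 of 8 members at least 2-fold lower, with a median of -0.50. These were Fcgrt, the receptor that recycles antibody, with 117 FPKM in T-ALL and 356 FPKM in normal (-1.60), Fcgr3 with 165 and 459 FPKM (-1.47) and Fcgr1 with 18.0 and 50.4 FPKM (-1.43). The inhibitory receptor Fcgr2b and the activating receptor Fcgr4 were within 2-fold on the other side of 0, with 40.7 and 29.8 FPKM for Fcgr2b (0.44) and 372 and 203 FPKM for Fcgr4 (0.87).

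Lysosomal genes were mostly within 2-fold. Of 27 members 25 had negative log2 ratios, with a range of -1.15 to 0.46 and a median of -0.61, but only Ctsc and Man2b1 passed 2-fold, near the 6.55% of all genes. Ctsc, which encodes cathepsin C, was at 141 FPKM in T-ALL and 312 FPKM in normal (-1.15), and Man2b1, a lysosomal mannosidase, at 163 and 336 FPKM (-1.04). The abundant cathepsin genes were within 2-fold: Ctsd was at 887 FPKM in T-ALL and 1570 FPKM in normal (-0.82) and Ctsb at 977 and 1642 FPKM (-0.75).

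Genes of lipid handling had 8 of 23 members at least 2-fold lower and 1 higher, with a median of -0.77. Apoe, the lipid carrier and seventh most abundant transcript of the normal library, was at 1647 FPKM in T-ALL and 4198 FPKM in normal (-1.35). The cholesterol exporter gene Abca1 was at 12.1 FPKM in T-ALL and 31.3 FPKM in normal (-1.30), and Ptgis, the prostacyclin synthase, at 8.98 and 53.7 FPKM (-2.45), the largest difference of the list. Fabp5, a fatty acid binding protein, was higher, at 110 FPKM in T-ALL and 41.0 FPKM in normal (1.41).

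**Figure D3:**
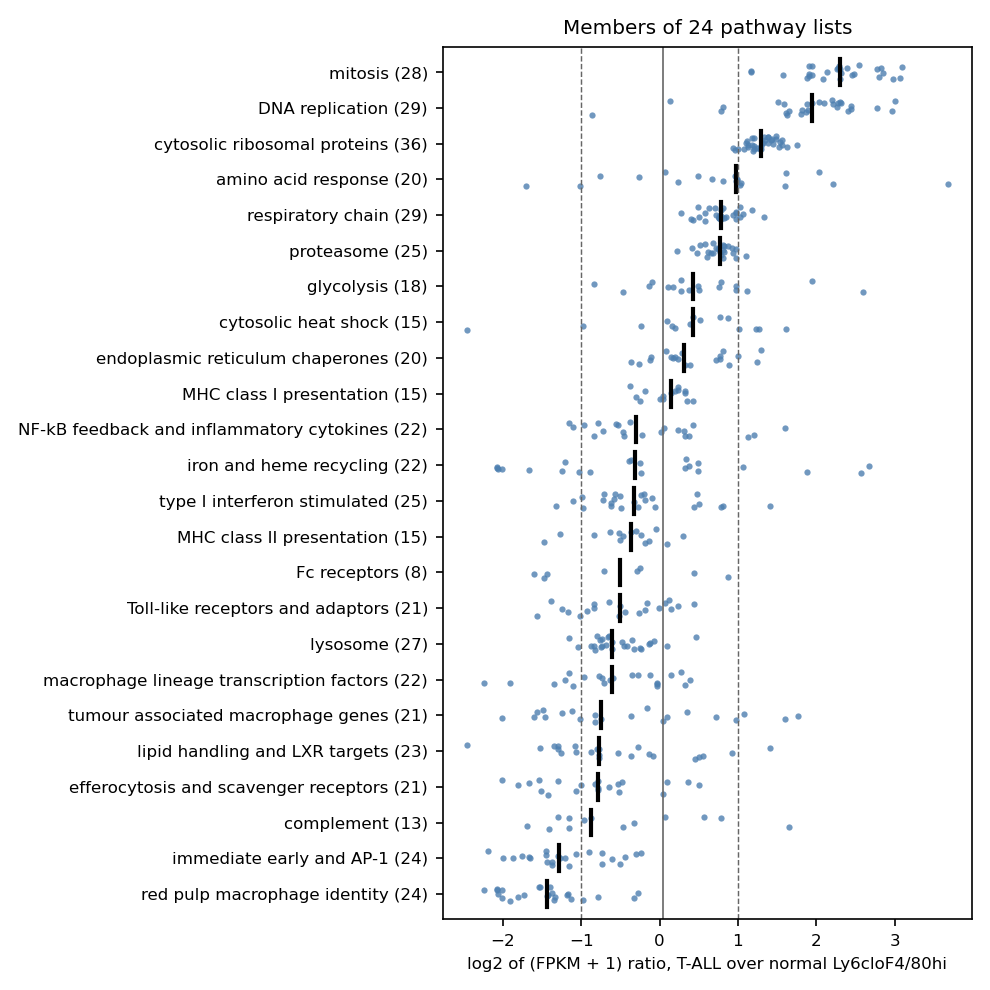
Log2 ratio of (FPKM + 1), T-ALL over normal Ly6cloF4/80hi, for each gene over the floor in 24 pathway lists (1 point a gene, small random vertical offset), with the number of genes in brackets. The thick bar is the list's median, the solid line the median of all 8905 genes (0.05) and the dashed lines a 2-fold difference. Medians run from -1.43 for red pulp macrophage genes to 2.30 for mitosis genes, and the ribosomal protein points lie close together.

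Among transcription factors of the macrophage lineage 6 of 22 were at least 2-fold lower and 0 higher, with a median of -0.61 that ran between -0.75 and -0.35 over the alternative settings. Besides Maf and Spic these included Tfec (9.36 FPKM in T-ALL and 23.0 FPKM in normal), Klf4 (2.04 and 5.76 FPKM) and Mitf (2.38 and 6.23 FPKM). Klf4 and Mitf passed the floor in normal alone, and of the 19 over it in both libraries 4 were lower. Other members were within 2-fold: Spi1, which encodes PU.1, was at 233 FPKM in T-ALL and 238 FPKM in normal (-0.03), and Runx1 at 12.7 and 12.9 FPKM (-0.03). Irf8, a factor of monocytes and dendritic cells, was at 175 FPKM in T-ALL and 287 FPKM in normal (-0.71).

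Toll-like receptors and their partners had 5 of 21 members at least 2-fold lower and 0 higher, with a median of -0.51. Of the 19 over the floor in both libraries 4 were lower and 0 higher. Cd14, which hands bacterial lipopolysaccharide to the receptor, was at 58.2 FPKM in T-ALL and 174 FPKM in normal (-1.56), and Tlr4, the receptor itself, at 13.03 and 35.8 FPKM (-1.39). The adaptor Myd88 was within 2-fold at 61.9 FPKM in T-ALL and 69.3 FPKM in normal (-0.16).

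Immediate early genes, which cells switch on within minutes of a stimulus, were lower in T-ALL. Of 30 listed genes 24 passed the floor, and of these 16 were at least 2-fold lower and 0 higher, with all 24 negative and a median of -1.28. Of the 20 over the floor in both libraries 13 were lower. Jun was at 177 FPKM in T-ALL and 651 FPKM in normal (-1.87), Fos at 158 and 432 FPKM (-1.45) and Junb at 219 and 597 FPKM (-1.44), the main subunits of the AP-1 factor. Feedback genes were on the same side: Zfp36, which destabilises cytokine mRNA, was at 324 FPKM in T-ALL and 1024 FPKM in normal (-1.66), and Dusp1, a phosphatase that switches off stress kinases, at 124 and 420 FPKM (-1.75).

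Atf3, a stress-induced transcription factor, had the lowest log2 ratio of that list, with 25.1 FPKM in T-ALL and 118 FPKM in normal (-2.19). Its RefSeq promoter (GRCm38.p6, chr1:191183284-191183583, minus strand, printed 5′ to 3′, 250 bases before the start site and 50 after it) is shown because Atf3 is a target of the factor Atf4 along with the genes of the amino acid response described further on. Capitals mark TTGCATCA, a composite site of the C/EBP and ATF families, at -110 to -103 from the start site, the only match to TGATGAAA or TTGCATCA on either strand.
Atf3: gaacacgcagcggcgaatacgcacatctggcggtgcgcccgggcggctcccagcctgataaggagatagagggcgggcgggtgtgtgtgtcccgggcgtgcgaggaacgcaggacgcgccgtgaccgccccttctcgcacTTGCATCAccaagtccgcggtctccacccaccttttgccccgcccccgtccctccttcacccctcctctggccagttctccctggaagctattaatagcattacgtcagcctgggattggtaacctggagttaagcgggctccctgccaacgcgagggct
Either motif was present in 1.90% of 32851 RefSeq mouse promoters of the same length, TTGCATCA alone in 0.895%. Of the 24 immediate early genes over the floor 21 had a promoter in the table, and Atf3 was the 1 with a match.

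Inflammatory genes did not share a direction. Of 22 genes of NF-kB feedback and cytokines 3 were at least 2-fold higher and 2 lower, with a median of -0.30. Over the floor in both libraries 1 of 19 was higher and 1 lower. Il10, an anti-inflammatory cytokine, was at 6.65 FPKM in T-ALL and 1.53 FPKM in normal (1.60), Il12b at 6.06 and 2.05 FPKM (1.21) and Socs3, a brake on cytokine signalling, at 19.9 and 8.54 FPKM (1.13). The 2 lower genes were Cd83 with 133 and 297 FPKM (-1.16) and Cxcl2 with 2.29 and 6.07 FPKM (-1.10). Il1b and Tnf were within 2-fold, with 51.1 FPKM in T-ALL and 88.4 FPKM in normal for Il1b (-0.78) and 22.4 and 18.0 FPKM for Tnf (0.31).

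Genes induced by type I interferon stood near equality. Of 25 genes 1 was at least 2-fold higher and 2 were lower, with a median of -0.33. Of the 23 over the floor in both libraries 1 was higher and 1 lower. Rsad2, which encodes the antiviral protein viperin, was at 44.4 FPKM in T-ALL and 16.1 FPKM in normal (1.41), while Ifit3 was at 31.3 and 68.5 FPKM (-1.11) and Mx2 at 2.55 and 7.86 FPKM (-1.32). Irf7, the factor that amplifies the interferon response, was within 2-fold at 91.2 FPKM in T-ALL and 151 FPKM in normal (-0.72).

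Antigen presentation genes differed little. MHC class II genes had 2 of 15 members at least 2-fold lower and a median of -0.37, and both were costimulators: Cd80 with 5.21 FPKM in T-ALL and 16.2 FPKM in normal (-1.47) and Cd86 with 92.7 and 225 FPKM (-1.27). The class II chain gene H2-Ab1 was within 2-fold at 2021 FPKM in T-ALL and 2906 FPKM in normal (-0.52), and Cd74, the invariant chain and most abundant transcript of the normal library, at 8052 and 11137 FPKM (-0.47). B cells also express class II genes, and the B cell list beside them summed to 2672 FPKM in T-ALL and 2662 FPKM in normal. MHC class I genes had 0 of 15 members past 2-fold and a median of 0.15, which was -0.07 under the lowest scaling. B2m, the light chain of class I, was at 5281 FPKM in T-ALL and 5227 FPKM in normal (0.01).

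Genes often described in tumour associated macrophages had 8 of 21 members over the floor at least 2-fold lower and 3 higher, with a median of -0.75, and 13 of the 34 listed genes were under the floor. The median depended on the floor, being -0.16 at 1 FPKM and -0.36 at 10 FPKM, and of the 14 genes over the floor in both libraries 5 were lower and 0 higher. Igf1, a growth factor, was at 20.5 FPKM in T-ALL and 59.3 FPKM in normal (-1.49), and the chemokine gene Ccl24 at 6.47 and 21.6 FPKM (-1.60). The higher genes were Fn1, which encodes fibronectin, with 10.7 FPKM in T-ALL and 2.42 FPKM in normal (1.77), Thbs1 with 6.01 and 2.32 FPKM (1.08) and Il10. Genes used to name polarised states differed in level and direction. Arg1 was at 1.73 FPKM in T-ALL and 0.80 FPKM in normal, and Nos2 was listed at 0 in both. Mrc1 was at 75.2 FPKM in T-ALL and 307 FPKM in normal (-2.01). Within 2-fold were Chil3, at 5.54 and 10.5 FPKM (-0.82), and Retnla, at 13.2 and 6.23 FPKM (0.97). Cd274, which encodes the checkpoint ligand PD-L1, was within 2-fold at 32.4 FPKM in T-ALL and 36.2 FPKM in normal (-0.16).

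Genes of cell division were higher in T-ALL almost throughout. All 28 mitosis genes passed the floor and 28 were at least 2-fold higher in T-ALL, with log2 ratios of 1.17 to 3.09 and a median of 2.30. Of 29 DNA replication genes 25 were at least 2-fold higher and 0 lower, with a median of 1.94. Of the 20 mitosis genes over the floor in both libraries 20 were higher, and of 23 such replication genes 19. The mitosis list summed to 1495 FPKM in T-ALL and 258 FPKM in normal, and the replication list to 2097 and 515 FPKM. Red cell precursors and leukemia cells also divide. The erythroid list summed to 42039 FPKM in T-ALL and 5352 FPKM in normal and the T cell list to 221 and 147 FPKM. The T-lineage leukemia list summed to 427 FPKM in T-ALL and 400 FPKM in normal, of which Cd44, a gene of many cell types, made 130 and 175 FPKM, while Dntt was at 16.5 FPKM in T-ALL and 0.380 FPKM in normal. The part of these cells in the mitosis values was not tested.

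Mki67, the proliferation antigen, was at 25.5 FPKM in T-ALL and 3.51 FPKM in normal (2.55). Cdk1, the mitotic kinase, was at 39.7 FPKM in T-ALL and 4.64 FPKM in normal (2.85), and Birc5, which encodes survivin, at 175 and 21.4 FPKM (2.98). In DNA replication, Rrm2, a subunit of ribonucleotide reductase, was at 212 FPKM in T-ALL and 25.4 FPKM in normal (3.01), and the helicase subunit gene Mcm7 at 178 and 32.7 FPKM (2.41). The exceptions were Tyms, thymidylate synthase, with 39.1 FPKM in T-ALL and 35.6 FPKM in normal (0.13), Pola1 with 12.5 and 6.84 FPKM (0.79), Pold1 with 47.0 and 26.4 FPKM (0.81) and the factor E2f1 with 9.70 and 18.4 FPKM (-0.86). H2ac11, 1 of several near-identical histone genes whose reads can be split among copies, was at 17.7 FPKM in T-ALL and was listed at 0 in normal. Mki67, Cdk1 and H2ac11 reached the floor in T-ALL alone, so their calls say little.

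Ccnb1, which encodes cyclin B1, the partner of Cdk1, had the highest log2 ratio of the mitosis list, with 75.3 FPKM in T-ALL and 7.97 FPKM in normal (3.09). Its RefSeq promoter (GRCm38.p6, chr13:100786437-100786736, minus strand, 5′ to 3′) is printed because many promoters of mitotic genes carry CCAAT boxes, which bind the factor NF-Y. Capitals mark CCAAT, at -99 to -95 and at -67 to -63 from the start site.
Ccnb1: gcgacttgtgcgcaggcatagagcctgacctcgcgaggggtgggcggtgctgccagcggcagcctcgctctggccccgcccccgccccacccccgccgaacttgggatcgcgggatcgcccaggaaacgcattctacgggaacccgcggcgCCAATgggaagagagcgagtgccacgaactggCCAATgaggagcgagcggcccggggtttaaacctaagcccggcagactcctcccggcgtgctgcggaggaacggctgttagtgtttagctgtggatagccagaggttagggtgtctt
Searched on both strands, CCAAT was present in the promoters of 21 of the 24 mitosis genes that the table holds, out of 28, and in 37.4% of 32851 promoters. A match to letters is not a measured binding site.

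Genes for cytosolic ribosomal proteins were higher by similar amounts. Of 36 genes 34 were at least 2-fold higher and 0 lower, with log2 ratios of 0.94 to 1.75 and a median of 1.30, which was 0.91 under the lowest scaling. Rps12 was at 467 FPKM in T-ALL and 138 FPKM in normal (1.75), Rplp0 at 1660 and 589 FPKM (1.49) and Rps9 at 1787 and 932 FPKM (0.94). Many ribosomal protein genes have processed copies that can share reads. The translation factor gene Eef1a1, which has such copies too, was at 3831 FPKM in T-ALL and 1793 FPKM in normal (1.09).

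Mitochondrial and proteasome genes lay on the same side but mostly within 2-fold. The respiratory chain list had 29 of 29 positive log2 ratios, 5 genes at least 2-fold higher and a median of 0.78, led by Ndufb9, a subunit of complex I, at 239 FPKM in T-ALL and 94.3 FPKM in normal (1.33). The proteasome list had 25 of 25 positive log2 ratios, 1 gene at least 2-fold higher and a median of 0.77, with Psmb4 at 245 FPKM in T-ALL and 113 FPKM in normal (1.10). In glycolysis 3 of 18 genes were at least 2-fold higher and the median was 0.43. The lactate transporter gene Slc16a1 was at 45.8 FPKM in T-ALL and 6.73 FPKM in normal (2.60) and hexokinase 1 (Hk1) at 40.1 and 9.68 FPKM (1.94), while Hk3, the hexokinase of myeloid cells, was within 2-fold at 31.4 and 56.4 FPKM (-0.83). The members of that list thus did not move together.

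Heat shock genes did not share a direction. Of 15 genes 4 were at least 2-fold higher and 1 lower, with a median of 0.43. The mitochondrial chaperonin pair Hspe1 and Hspd1 was higher, with 217 FPKM in T-ALL and 70.6 FPKM in normal for Hspe1 (1.61) and 196 and 81.0 FPKM for Hspd1 (1.27). Hspa1a, the inducible Hsp70 gene, was among the lowest of all genes at 9.43 FPKM in T-ALL and 56.5 FPKM in normal (-2.46), with Hspa1b, a near-identical copy, at 0.14 and 1.16 FPKM. Chaperones of the endoplasmic reticulum had 2 of 20 members at least 2-fold higher, near the 10.8% of all genes, and a median of 0.31. These were Sec61b, a channel subunit, with 264 FPKM in T-ALL and 108 FPKM in normal (1.29) and Creld2 with 117 and 48.9 FPKM (1.24). The sensor target Hspa5, or BiP, was within 2-fold at 471 FPKM in T-ALL and 419 FPKM in normal (0.17).

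Genes of the amino acid response, which the factor Atf4 switches on when amino acids run short, had 7 of 20 members over the floor at least 2-fold higher and 2 lower, with a median of 0.97. Of the 19 over the floor in both libraries 6 were higher and 2 lower. The enzymes that make serine and feed 1-carbon metabolism were among the higher ones. Phgdh was at 97.0 FPKM in T-ALL and 23.1 FPKM in normal (2.03), Psat1 at 32.3 and 6.2 FPKM (2.21) and Shmt2 at 80.3 and 25.6 FPKM (1.61). Other members did not share that direction. Ddit4, an inhibitor of the kinase mTOR, was at 33.9 FPKM in T-ALL and 112 FPKM in normal (-1.70), Sesn2 at 18.1 and 37.8 FPKM (-1.02), and Atf4 itself was within 2-fold at 149 and 141 FPKM (0.07). Nupr1, a stress-induced gene, was higher, at 18.7 FPKM in T-ALL and 8.61 FPKM in normal (1.04). Dividing cells express serine enzymes as well, and the part of the cells behind the mitosis values was not tested here.

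Asns, asparagine synthetase, had the highest log2 ratio of the list, with 69.9 FPKM in T-ALL and 4.53 FPKM in normal (3.68). This was also the highest of the 24 pathway lists. Asns reached the floor in T-ALL alone, so its call and rank say little. Its RefSeq promoter (GRCm38.p6, chr6:7693160-7693459, minus strand, 5′ to 3′) is printed for its amino acid response element. Capitals mark TGATGAAA at -23 to -16 from the start site.
Asns: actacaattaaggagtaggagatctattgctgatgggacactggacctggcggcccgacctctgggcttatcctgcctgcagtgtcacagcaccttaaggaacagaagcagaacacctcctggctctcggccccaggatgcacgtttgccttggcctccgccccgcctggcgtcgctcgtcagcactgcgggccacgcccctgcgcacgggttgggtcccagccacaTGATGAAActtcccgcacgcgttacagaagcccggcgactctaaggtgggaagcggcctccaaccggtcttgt
Searched on both strands, TGATGAAA was present in 1.02% of 32851 promoters. TGATGAAA or TTGCATCA was present in 5 of the 19 list members with a promoter in the table, out of 20, namely Aars, Asns, Gars, Nupr1 and Slc7a11.

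Erythroid genes gave the largest differences in level. All 27 genes found passed the floor, 26 were at least 2-fold higher and 0 lower (18 of the 19 over the floor in both libraries), with a median of 3.33, and the list summed to 42039 FPKM in T-ALL and 5352 FPKM in normal. The alpha globin gene Hba-a1 was the most abundant transcript of the T-ALL library, at 18610 FPKM in T-ALL and 2438 FPKM in normal (2.93), and the beta globin gene Hbb-bs the next, at 11701 and 1495 FPKM (2.97). Hba-a2 and Hbb-bt are near-identical copies of these genes, and the split of reads between copies is uncertain. The normal Ly6cloF4/80hi library already held more globin RNA than the F4/80lo gates: Hba-a1 was at 265 FPKM in normal Ly6cloF4/80lo and 461 FPKM in normal Ly6chiF4/80lo.

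Non-globin genes of the erythroid list were at least 2-fold higher too, with 1 exception. The factors Gata1 and Klf1 were at 52.7 FPKM in T-ALL and 4.10 FPKM in normal for Gata1 (3.40) and at 136 and 10.8 FPKM for Klf1 (3.53). Gata1 reached the floor in T-ALL alone, so its call says little. Alas2, the first enzyme of erythroid heme synthesis, was at 146 FPKM in T-ALL and 18.1 FPKM in normal (2.95). The membrane gene Slc4a1, for the band 3 anion exchanger, was at 255 FPKM in T-ALL and 15.98 FPKM in normal (3.92). The exception was Epor, the erythropoietin receptor, which was within 2-fold at 45.7 FPKM in T-ALL and 39.1 FPKM in normal (0.22).

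The promoters of the most abundant alpha and beta globin genes are printed because the erythroid factors Gata1 and Klf1 and the CCAAT-binding factors act on globin promoters (RefSeq, GRCm38.p6, Hba-a1 at chr11:32283422-32283721, plus strand, and Hbb-bs at chr7:103827879-103828178, minus strand, each 5′ to 3′). Capitals mark, in Hba-a1, the GATA motif TGATAA at -183 to -178 and CCAAT at -88 to -84, and in Hbb-bs the GATA motif AGATAA at -210 to -205, the Klf1 motif CCACACCC at -93 to -86 and CCAAT at -76 to -72.
Hba-a1: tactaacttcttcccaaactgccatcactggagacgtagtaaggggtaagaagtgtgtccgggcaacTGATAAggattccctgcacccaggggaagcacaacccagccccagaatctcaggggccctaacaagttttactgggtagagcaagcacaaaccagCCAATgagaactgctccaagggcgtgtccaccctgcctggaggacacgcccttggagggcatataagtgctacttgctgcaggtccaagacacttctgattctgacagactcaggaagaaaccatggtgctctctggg
Hbb-bs: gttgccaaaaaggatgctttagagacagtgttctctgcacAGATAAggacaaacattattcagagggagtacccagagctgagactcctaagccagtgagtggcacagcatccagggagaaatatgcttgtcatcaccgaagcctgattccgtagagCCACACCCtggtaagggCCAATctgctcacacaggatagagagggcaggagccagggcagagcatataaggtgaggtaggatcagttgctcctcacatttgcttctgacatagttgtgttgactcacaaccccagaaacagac
Searched on both strands, AGATAA or TGATAA was present in 12 of the 18 erythroid list members with a promoter in the table, out of 27, and in 18.6% of 32851 promoters. CCACACCC was present in 3.56% of all promoters and CCAAT in 37.4%.

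Markers of other cell types were measured beside these results. Plasma cell genes had 7 of 11 members at least 2-fold higher and 0 lower (5 of the 8 over the floor in both libraries), and their sum was 1958 FPKM in T-ALL and 581 FPKM in normal. Jchain, which joins antibody units, was at 876 FPKM in T-ALL and 187 FPKM in normal (2.22), and Mzb1, a chaperone of antibody secretion, at 472 and 101 FPKM (2.21). The B cell list did not move with it: 0 of 13 genes passed 2-fold, the median was 0.01 and Cd79a, a signalling chain of the B cell receptor, was at 642 FPKM in T-ALL and 614 FPKM in normal (0.06).

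Of 20 T cell genes 13 reached the floor. At least 2-fold higher were 6 of these 13, and all 6 reached the floor in T-ALL alone. Of the 5 genes over the floor in both libraries 0 passed 2-fold. The levels were low in both libraries, with a summed 221 FPKM in T-ALL and 147 FPKM in normal. Cd3e, a chain of the T cell receptor complex, was at 10.8 FPKM in T-ALL and 2.22 FPKM in normal (1.88), and Thy1 at 6.65 and 0.60 FPKM (2.26), while Cd4 was within 2-fold at 15.3 and 22.1 FPKM (-0.50). Genes of immature T cells and of T-lineage leukemia had 3 of 9 members at least 2-fold higher, of which only Lmo2 was over the floor in both libraries. Dntt, the template-free DNA polymerase of early lymphocytes, was at 16.5 FPKM in T-ALL and 0.380 FPKM in normal (3.67), and Tal1 and Lmo2, which erythroid precursors also express, were at 6.22 and 0.190 FPKM for Tal1 (2.60) and at 38.4 and 8.63 FPKM for Lmo2 (2.03). Notch3 was at 0.30 FPKM in T-ALL and 0.02 FPKM in normal, and Rag1 at 0.640 and 0.08 FPKM.

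Genes listed for granulocytes differed in direction. Of 11 basophil and mast cell genes 3 reached the floor, Prss34 and Cpa3 in T-ALL alone and Mcpt8 in both libraries, so no count is drawn from them. The basophil protease genes Prss34 and Mcpt8 were at 63.7 FPKM in T-ALL and 4.84 FPKM in normal for Prss34 (3.47) and at 39.6 and 5.77 FPKM for Mcpt8 (2.59). Neutrophil genes had 2 of 11 members at least 2-fold lower and 0 higher. Of the 9 over the floor in both libraries 1 was lower, namely Fpr1. Fpr1 was at 97.2 FPKM in T-ALL and 211 FPKM in normal (-1.11), and at 8.29 to 29.0 FPKM in the F4/80lo gates. S100a8 was at 92.7 FPKM in T-ALL and 144 FPKM in normal (-0.63). Ccr3, the eotaxin receptor of eosinophils, was at 57.1 FPKM in T-ALL and 264 FPKM in normal (-2.19). Prg2, the eosinophil major basic protein, was at 23.3 and 7.28 FPKM (1.56). In the F4/80lo gates Ccr3 was at 2.47 to 9.13 FPKM and Prg2 at 12.0 to 130 FPKM. Ccr3 and Fpr1 were thus highest in the Ly6cloF4/80hi gate, and which cells held their RNA was not tested. These sums were small beside the erythroid one: basophil and mast cell genes summed to 130 FPKM in T-ALL and 20.4 FPKM in normal.

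Monocyte and dendritic cell lists had few members past 2-fold. The classical monocyte list had 1 of 10 members higher and 1 lower with a median of 0.23, and Lyz2, lysozyme, was at 744 FPKM in T-ALL and 670 FPKM in normal (0.15), both signs turning under the lowest scaling (-0.13 and -0.37). Of the 8 classical monocyte genes over the floor in both libraries 0 were higher and 1 was lower. The conventional dendritic list had 3 of 11 members lower and 1 higher, or 2 lower and 1 higher of the 10 over the floor in both libraries. Its higher member was Cd24a, at 604 FPKM in T-ALL and 109 FPKM in normal (2.45), a surface gene that red cell precursors and B cells also express. Natural killer and plasmacytoid dendritic lists had 0 members past 2-fold. Of the stromal genes Col1a1 was at 0 in both libraries and Cxcl12 and Col3a1 were at 0 in T-ALL.

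**Figure D4:**
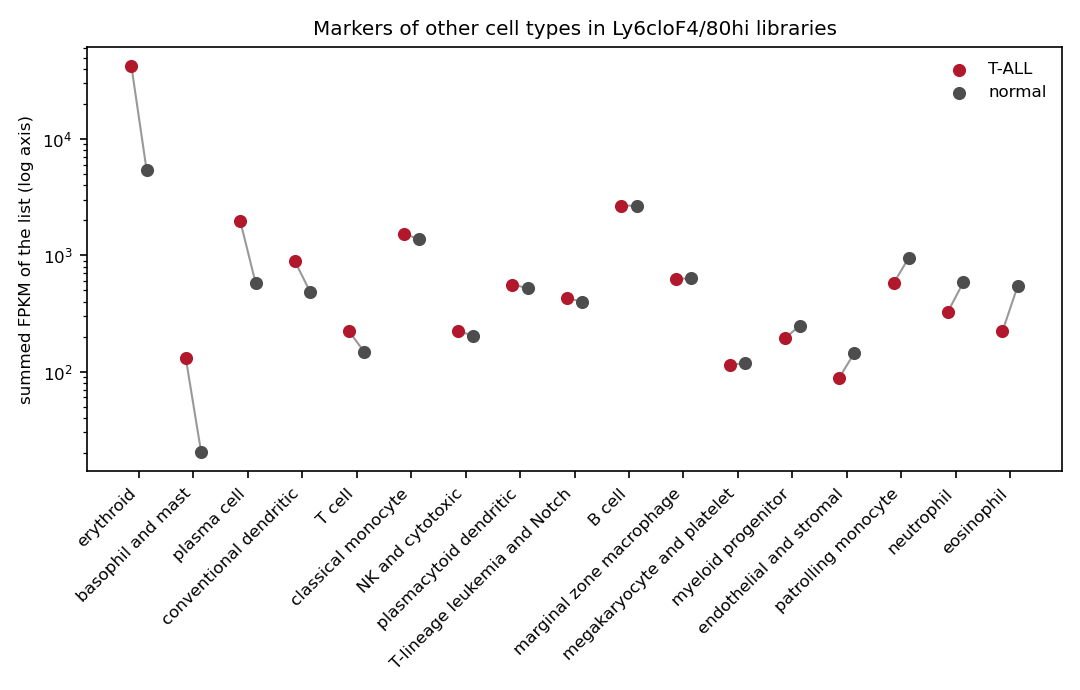
Summed FPKM of the marker genes of 17 other cell types in T-ALL (left point of each pair) and normal (right point) Ly6cloF4/80hi libraries, on a log axis, ordered by the ratio of the sums. The erythroid sum is the highest, at 42039 FPKM in T-ALL and 5352 FPKM in normal, and the B cell points lie level at 2672 and 2662 FPKM.

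Single genes at the extremes were taken by a fixed rule, the 15 highest and the 15 lowest log2 ratios among genes with a symbol that reached 10 FPKM in T-ALL or normal. Apol11b, an apolipoprotein L gene, was the highest, at 126 FPKM in T-ALL and 2.99 FPKM in normal (5.0), and at 12.9 and 0.970 FPKM in T-ALL and normal Ly6cloF4/80lo. Of the 15 highest 7 were on the erythroid list, among them Slc4a1, Aqp1, Cldn13, Rhag, Hemgn and Rhd. Gfi1b, a factor of red cell and platelet precursors, was at 52.8 FPKM in T-ALL and 2.77 FPKM in normal (3.83), and Add2, an adducin of the membrane skeleton, at 36.1 and 1.41 FPKM (3.94). Ctse, which encodes cathepsin E, was at 193 FPKM in T-ALL and 14.0 FPKM in normal (3.69). Thus at least Gfi1b and Add2, outside the list, are also known from red cell precursors. Apol11b, Rhag, Gfi1b and Add2 reached the floor in T-ALL alone, so their calls and ranks say little.

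Among the lowest genes several were high in the normal Ly6cloF4/80hi library, which is 1 library, and in no other. Being low in T-ALL follows from how these genes were picked. Tmem220, a membrane protein gene, was at 1.82 FPKM in T-ALL and 694 FPKM in normal (-7.94), and at 1.57 to 1.95 FPKM in the other 4 libraries. Podn, which encodes the matrix protein podocan, was at 0.650 FPKM in T-ALL and 51.1 FPKM in normal (-4.98), and Serpina1a, an alpha-1 antitrypsin gene with close copies, at 0.230 and 19.1 FPKM (-4.03). Tmem220 in T-ALL Ly6cloF4/80hi was thus at the level of the F4/80lo gates. Of the 16058 genes listed in the series, 46 reached 10 FPKM in normal Ly6cloF4/80hi and stayed under 5 FPKM in the 5 other libraries. In T-ALL Ly6cloF4/80hi 15 genes did so. This filter sets the direction of each gene in advance, so the counts describe single libraries only.

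Other low genes kept a level in T-ALL above the other gates. Mpzl1, a cell surface protein gene, was at 18.6 FPKM in T-ALL and 121 FPKM in normal (-2.64), and at 2.09 to 4.10 FPKM in the other 4 libraries. Dmpk, a protein kinase gene, was at 12.7 FPKM in T-ALL and 69.1 FPKM in normal (-2.36), and Adcy3, an adenylate cyclase gene, at 5.78 and 31.6 FPKM (-2.26), each under 2.7 FPKM in the other gates. Among the 15 genes of the T-ALL library were the acute phase gene Saa3, at 38.5 FPKM in T-ALL and 3.41 FPKM in normal, and the red cell spectrin gene Sptb, at 14.6 FPKM in T-ALL and 0.550 FPKM in normal.

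The same 8905 genes were read in the other gates, each with its own normal library. In Ly6cloF4/80lo 5.74% were at least 2-fold higher in T-ALL and 1.53% lower, and in Ly6chiF4/80lo 6.40% were higher and 3.77% lower, against 10.8% and 6.55% in Ly6cloF4/80hi, the gate whose levels set the floor. Of the 959 higher genes 424 were also higher in Ly6cloF4/80lo (44.2% of the Ly6cloF4/80hi list and 83.0% of the Ly6cloF4/80lo list) and 368 in Ly6chiF4/80lo (38.4% and 64.6%), and 218 were higher in all 3 gates. Of the 583 lower genes 82 were also lower in Ly6cloF4/80lo (14.1% and 60.3%) and 122 in Ly6chiF4/80lo (20.9% and 36.3%), and 41 were lower in all 3. Within 2-fold in both other gates were 381 of the higher and 412 of the lower genes. By the shares above most of the 8905 genes were within 2-fold in each other gate. These 2 counts therefore do not mark genes as particular to Ly6cloF4/80hi. The differences between gates were not tested.

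By list, mitosis medians were 2.30 in Ly6cloF4/80hi, 1.53 in Ly6cloF4/80lo and 1.76 in Ly6chiF4/80lo, so the proliferation genes were higher in each gate. Ribosomal protein medians were 1.30, 0.23 and 1.05 in the same gates. Erythroid medians were 3.33, 2.83 and 0.28, and the erythroid list summed to 995 FPKM in T-ALL and 951 FPKM in normal Ly6chiF4/80lo. Which cells held the mitosis RNA of each gate was not tested. Red pulp medians were -1.43, -0.91 and -1.02, from sums that in the F4/80lo gates were small. MHC class II medians were -0.37, -0.85 and -0.99, nearer to equality in Ly6cloF4/80hi than in the other gates. B cell list medians were 0.01, -0.58 and -0.75 in the same order. The part of B cell RNA in the class II values was not tested.

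**Figure D5:**
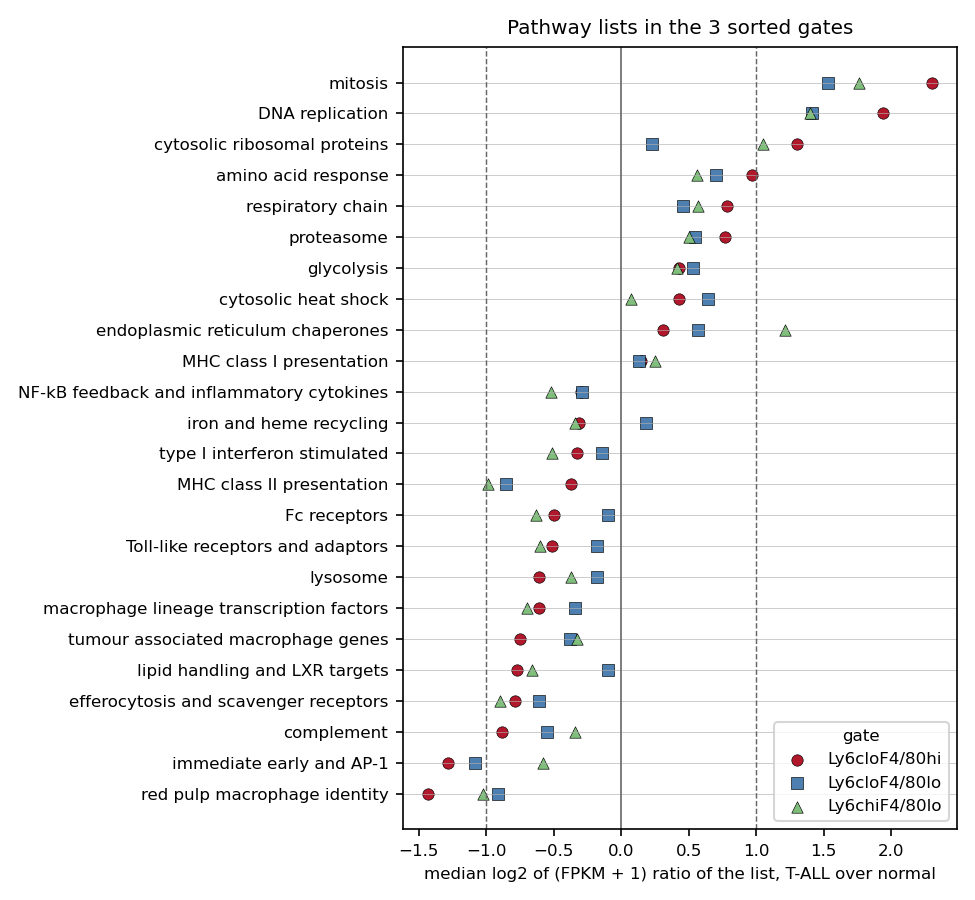
Median log2 ratio of (FPKM + 1), T-ALL over normal, of 24 pathway lists in Ly6cloF4/80hi (circles), Ly6cloF4/80lo (squares) and Ly6chiF4/80lo (triangles), over genes that reached 5 FPKM in Ly6cloF4/80hi. Mitosis and DNA replication medians are above 1 in the 3 gates, while the ribosomal protein median is 1.30 in Ly6cloF4/80hi and 0.23 in Ly6cloF4/80lo.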

How the data were processed

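The submitters' processing notes name Bowtie2 (version 2.2.5) and RSEM, and the deposited values are FPKM per Entrez gene to 2 decimals. The genome build, the annotation and which RSEM release was used were not given in the sources used here. Symbols came from a RefSeq table of GRCm38.p6 (16017 of 16058 identifiers), used for names and promoters only. The log2 ratios were computed here from the deposited FPKM with a pseudocount of 1, over genes that reached 5 FPKM in T-ALL or normal Ly6cloF4/80hi, in Python 3.11.15 (numpy 2.4.6, pandas 2.3.3, matplotlib 3.10.9). Depth was estimated from the spacing of low FPKM values under 2.0 of genes with a single transcript length in GENCODE M21, an annotation that may differ from the authors' own. The procedure was tried on simulated data made of whole counts with the same transcript lengths. Such data cannot show how close the estimate is for the deposited values. The members, the 41 gene lists and the rules were chosen with earlier results of these data known.

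Named genes were Adgre1, Vcam1, Ly6c1 and Ly6c2, the 15 highest and 15 lowest log2 ratios, the 10 largest gains and losses in FPKM, and up to 6 members of each list with the largest differences (for cell types also the most abundant), in all 263. Antigen receptor segments and genes with only an identifier, predicted-gene or RIKEN name were skipped (2). A few genes counted in the lists are not reported here by name. Other members of lists were named after their values were seen. Alternatives were other pseudocounts, floors, folds and scalings, and, added after seeing the data, counts over genes that reached the floor in both libraries. No test was made, since each group has 1 library.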

Additional observations from a re-analysis of the deposited data

Results flagged for a closer look

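These results had opposite signs in Ly6cloF4/80hi and in another gate, and the difference between gates was not tested. The neutrophil list had a median log2 ratio of -0.84 in Ly6cloF4/80hi and 1.47 in Ly6chiF4/80lo, where it summed to 45474 FPKM in T-ALL and 13594 FPKM in normal. The T cell list had a median of 0.91 in Ly6cloF4/80hi and -0.57 in Ly6chiF4/80lo, over 13 genes of which 7 reached the floor in T-ALL Ly6cloF4/80hi alone. Emilin2, an extracellular matrix protein gene, was at 26.3 FPKM in T-ALL and 4.99 FPKM in normal Ly6cloF4/80hi (2.19), and at 41.5 and 113 FPKM in T-ALL and normal Ly6chiF4/80lo (-1.43). Fn1 had a log2 ratio of 1.77 in Ly6cloF4/80hi and -1.18 in Ly6chiF4/80lo, and Maged1 one of -1.50 and 1.19. Emilin2 and Fn1 passed the Ly6cloF4/80hi floor in T-ALL alone, so their log2 ratios there say little. Pla2g7, a secreted phospholipase gene, had -1.47 in Ly6cloF4/80hi and 1.17 in Ly6cloF4/80lo, and Fpr1, a formyl peptide receptor gene, -1.11 and 1.69.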

How the results depend on the processing

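The count of higher genes (959 as reported) was 1933 at 1.5-fold and 254 at 4-fold, and the count of lower genes (583) was 1462 and 40. Scaling to a sum of 1000000 gave 1173 lower genes, and the same without the erythroid list 959. Under a pseudocount of 0.1, a floor of 1 or 10 FPKM, median-ratio rescaling and quantile normalization both counts stayed within 1.5 times. None of the 10 lists and 183 named genes past 2-fold changed sign under these settings. For the genes this was nearly set in advance and says little. A pseudocount or floor cannot turn the sign of a gene, and scaling to a sum of 1000000 moved the median of all genes by -0.21. Past 2-fold under each setting stayed 7 lists and 171 genes. The 3 lists that did not were ribosomal proteins (0.91 at the lowest), megakaryocyte (0.88) and myeloid progenitor genes (0.34). Medians of smaller size moved by over 1.5 times in some settings, to 0.09 for endoplasmic reticulum chaperones, 0.20 for heat shock, 0.28 for glycolysis, 0.60 for T cell, -0.54 for iron and heme, -0.55 for interferon, -0.58 for MHC class II and -0.60 for NF-kB genes. Medians of the B cell, MHC class I, natural killer, classical monocyte and plasmacytoid lists, all near 0, took either sign. No paired analysis was possible because each group has 1 library. A 2 kb transcript at 5 FPKM rests on 86.0 fragments in T-ALL and 75.9 in normal Ly6cloF4/80hi.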

Other observations

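Of 13 megakaryocyte and platelet genes only Pf4 and Clec1b were over the floor in both Ly6cloF4/80hi libraries, and 4 reached it in T-ALL alone. Pf4, platelet factor 4, was at 23.5 FPKM in T-ALL and 5.83 FPKM in normal (log2 ratio 1.84), while Clec1b, a platelet receptor gene, was within 2-fold at 45.2 and 90.0 FPKM (-0.98), and the summed level of the list was 115 FPKM in T-ALL and 118 FPKM in normal. Of 12 myeloid progenitor genes 4 were over the floor in both libraries and 4 in T-ALL alone, and the list median of 1.39 was 0.34 with a floor of 10 FPKM. Of the first 4, 1 was at least 2-fold higher, namely Mpo, myeloperoxidase, at 32.6 FPKM in T-ALL and 5.22 FPKM in normal (2.43). Another was lower, namely Igsf6, at 80.8 FPKM in T-ALL and 187 FPKM in normal (-1.20). Patrolling monocyte genes did not share a direction: Spn, or CD43, was at 28.5 FPKM in T-ALL and 6.79 FPKM in normal (1.92), and Treml4 at 193 and 511 FPKM (-1.40).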
